A study of Rattus norvegicus with 20 samples.

Results

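Obese epididymal fat was compared with lean control epididymal fat in rats, using the 5 arrays titled obese and the 5 titled lean control among the 20 arrays of the study. Members were chosen by those titles alone. The 5 obese arrays came from male ZDF rats given a stock diet over 6 weeks, and the 5 lean control arrays from male ZDF rats given a standard Purina chow. All of these rats had 1 cage each, free access to food and reversed lighting in which 12 h of light alternated with 12 h of dark. Their strain is labelled Zucker. ZDF is the Zucker diabetic fatty rat, and obese animals of this stock are known to carry a defect in the leptin receptor. The labels name no genotype and no age. As the labels word the diets of the groups differently, diet and obesity cannot be told apart, nor can any genotype that runs with obesity. The remaining 10 arrays came from rats given rosiglitazone or resveratrol, and they enter neither of the group means compared. They entered the estimate of spread per gene, the background threshold and the choice of probe set. They also entered quantile normalization and the fit with array spread as a covariate.

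Each value is a log2 signal, so 1 unit is a doubling, from a Rat Gene 2.1 ST array. The test was limma with Benjamini-Hochberg adjustment over the 14557 genes measured by a probe set of their own, and an adjusted p of at most 0.05 was the threshold. Signals were called near background where a mean was at or below 3.10, the 95th percentile of 1280 olfactory, vomeronasal and taste receptor genes. A fold with such a mean on 1 side is approximate. Epididymal is the only tissue label. Adipoq, the fat cell hormone adiponectin, averaged 10.97 in obese rats, while 19 genes of epididymal epithelium and sperm averaged 1.57 to 2.10 per array and 1 of them lay above background.

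White fat stores triglyceride in fat cells and secretes hormones such as leptin and adiponectin that report the size of the store. When the store grows, fat cells enlarge, macrophages gather around dying fat cells and take up their lipid, and fibroblasts lay down more matrix. Macrophages filled with lipid are known for Trem2, Gpnmb and lysosomal enzymes. The epididymal pad is a visceral depot in which these changes are well described in rodents.

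Lean control replicate 3 was nearer the obese arrays over all genes than any other lean array. Its mean Spearman correlation was 0.967 with the obese arrays and 0.946 with its own group. Lean control replicates 1, 2, 4 and 5 had 0.96, 0.945, 0.948 and 0.955 with the obese arrays. With their own group they had 0.955, 0.945, 0.947 and 0.947, so none correlated clearly better with its own group. The signals of lean control replicate 3 also had a wide spread. The standard deviation over genes within an array was 1.78, 1.85, 1.95, 1.81 and 1.92 in obese replicates 1 to 5, against 1.72, 1.63, 1.95, 1.59 and 1.76 in lean control replicates 1 to 5. In this spread the groups did not overlap once lean control replicate 3 was left out. Results are therefore given with all 10 arrays and without this array. The array was set aside for its levels, so leaving it out widens the difference by construction. Values without it are a description and no independent support.

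With all 10 arrays, 105 genes (0.721% of those tested) passed the threshold. Of these 85 (0.584%) were higher and 20 (0.137%) lower in obese fat, and 48 differed by at least 2-fold, 37 of them higher. The groups did not overlap in 38 of the 105 genes, of which 26 were higher and 12 lower. Of all genes, 310 (2.13%) had no overlap, 156 higher (1.07%) and 154 lower (1.06%). Without lean control replicate 3, 1856 genes (12.7%) passed. Of these 1478 (10.2%) were higher and 378 (2.60%) lower, and 238 differed by at least 2-fold, 198 of them higher. All 105 genes were among the 1856 with the same sign, which is 100% of the shorter set and 5.66% of the longer one. In the longer set 1168 genes had no overlap between the 5 obese and 4 lean arrays, against 1615 (11.1%) of all genes, 1206 higher (8.28%) and 409 lower (2.81%).

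Lean control replicate 3 lay nearer the obese mean than the mean of the other lean arrays in 1700 of those 1856 genes (91.6%), against 10303 of all 14557 genes (70.8%). In 1196 of them it lay at or beyond the obese mean. On a scale where 0 is the mean of the other lean arrays and 1 the obese mean, its median position was 1.16. Those genes were called against the other 4 lean arrays, so the position of this array in them is a description only. In 42 of the 105 genes that passed with all arrays, replicate 3 lay outside the obese range on the lean side. Why this array stood apart was not tested.

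**Figure D1:**
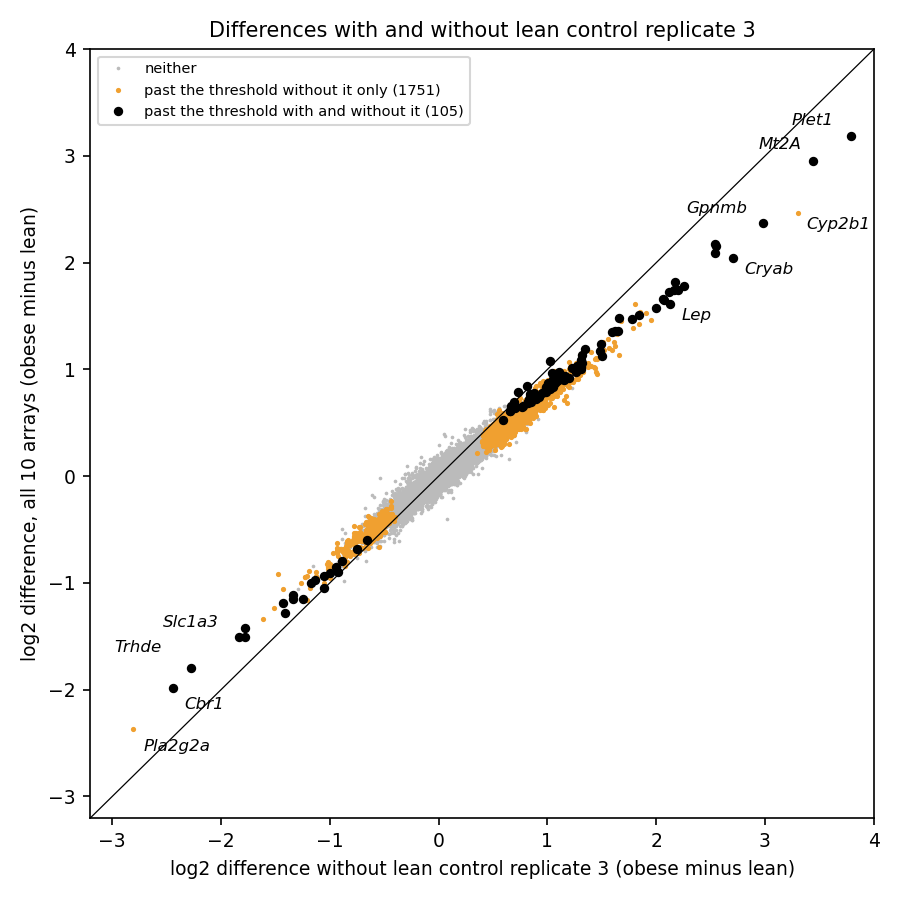
Log2 differences (obese minus lean control) of all genes, computed without lean control replicate 3 on the horizontal axis and with all 10 arrays on the vertical axis. Black points are the 105 genes past the threshold in both computations, orange points those past it only without this array, and the diagonal marks equal values. Large differences lie closer to 0 on the vertical axis, as for Plet1 at 3.19 with all arrays and 3.79 without the array.

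Differences also ran with brightness. Without lean control replicate 3, the 7013 genes above background had a median log2 difference of 0.27, and the 7544 dimmer genes one of -0.14. With all 10 arrays the medians were 0.19 and -0.11. After quantile normalization, which gives every array the same distribution of signals, the medians without that array were 0.02 and -0.02. Quantile normalization left 72 genes (0.495%) past the threshold with all arrays, 43 higher and 29 lower, and 693 genes (4.76%) without lean control replicate 3, 400 higher (2.75%) and 293 lower (2.01%). The share of calls that were higher was thus 59.7% after quantile normalization and 81.0% on the deposited values with all arrays, and 57.7% and 79.6% without that array. Without that array, 533 genes passed both ways, 383 higher and 150 lower. The wider spread of the obese arrays and the obese state cannot be told apart in these values, and counts after quantile normalization, where given for a gene group, are those without that array unless stated.

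**Figure D2:**
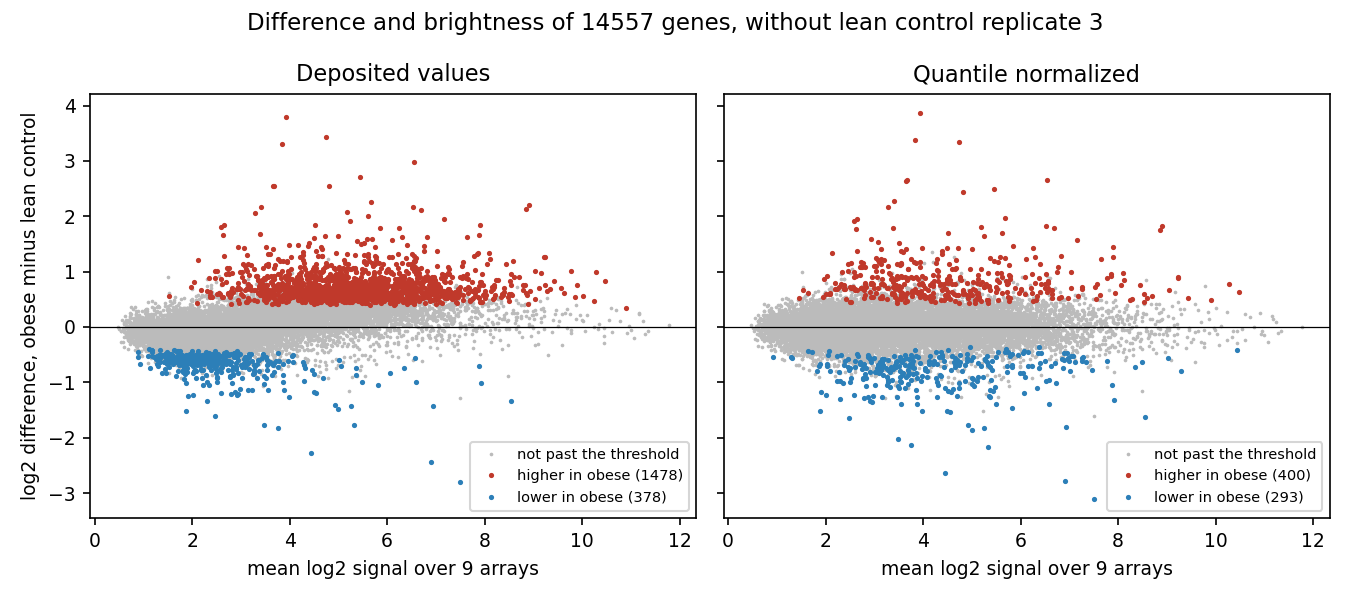
Log2 difference (obese minus lean control, without lean control replicate 3) against mean log2 signal for 14557 genes, as deposited on the left and after quantile normalization on the right. Red points are genes past the threshold and higher in obese fat and blue points those lower. On the left most red points lie above a signal of 3.10 and most blue points below it, and on the right the red and blue points number 400 and 293.

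Leptin rose in obese fat while adiponectin did not pass the test. Lep, the hormone by which fat reports its stores, read 9.65, 9.75, 9.72, 9.76 and 10.12 in obese replicates 1 to 5, against 8.10, 7.24, 10.27, 7.31 and 8.02 in lean control replicates 1 to 5. The groups overlapped through lean control replicate 3 alone, which held the highest value of the 10. With all arrays Lep was 3.06-fold higher (log2 difference 1.61 ± 0.36, SE; adjusted p = 0.0417), and without that array 4.39-fold higher (2.13 ± 0.23, adjusted p = 3.97e-06). Adipoq read 10.94, 10.92, 10.95, 11.07 and 10.96 in the obese arrays and 10.95, 10.75, 11.04, 11.10 and 10.98 in the lean arrays. Its log2 difference was 0.02 ± 0.12 without lean control replicate 3 (adjusted p = 0.929). Retn, the hormone resistin, averaged 6.79 ± 0.33 in obese rats and 6.93 ± 0.51 in lean rats (SD, n = 5 each; adjusted p = 0.832).

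Cfd, the fat cell protease adipsin that starts the alternative complement pathway, moved the other way. It read 7.50, 8.18, 8.03, 8.23 and 7.79 in obese rats, against 9.08, 9.53, 8.15, 9.24 and 9.30 in lean rats. Of the lean arrays only replicate 3 lay within the obese range. Cfd was 2.16-fold lower with all arrays (-1.11 ± 0.20, adjusted p = 0.0164) and 2.53-fold lower without it (adjusted p = 2.64e-05). Acvr1c, the activin receptor ALK7 of fat cells, read 6.18, 6.41, 6.55, 6.21 and 6.16 in obese rats, against 7.62, 7.68, 6.53, 7.81 and 7.83 in lean rats. The 4 other lean arrays lay more than 1 unit above every obese array. Acvr1c was 2.28-fold lower with all arrays (adjusted p = 0.0171) and 2.70-fold lower without lean control replicate 3 (adjusted p = 5.93e-05).

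Of 18 measured fat cell identity genes, 1 was higher and 2 lower with all arrays (5.56% and 11.1%, against 1.14% and 0.200% of genes above background). Without lean control replicate 3, 3 were higher (Lep, Aqp7 and Cidec) and 2 lower (Cfd and Acvr1c), with a median log2 difference of 0.08. These shares were 16.7% and 11.1%, against 20.3% and 1.13% of genes above background. After quantile normalization the counts were 2 and 2 (11.1% each, against 4.68% and 3.14%). Aqp7, the channel through which fat cells release glycerol, averaged 8.56 ± 0.08 in obese rats and 7.42 ± 0.52 in the 4 lean rats (SD), 2.20-fold apart (adjusted p = 0.000323), and did not pass with all arrays (adjusted p = 0.0903). The list's mean level per array ran from 8.61 to 8.84 in obese rats and from 8.37 to 9.08 in lean rats.

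Of the lipid droplet genes, Plin2 rose in both computations and others only without lean control replicate 3. Plin2, the droplet coat protein perilipin 2 of many cell types, read 7.64, 7.41, 7.63, 7.64 and 7.83 in obese rats, against 5.29, 5.80, 7.46, 5.10 and 5.86 in lean rats. Here too lean control replicate 3 lay within the obese range, and the other lean arrays at least 1 unit below it. Plin2 was 3.32-fold higher with all arrays (1.73 ± 0.32, adjusted p = 0.0164) and 4.34-fold higher without that array (adjusted p = 1.62e-05). Cidea, which fuses lipid droplets and is also a marker of brown fat in mice, averaged 8.62 ± 0.29 in obese rats and 6.97 ± 0.50 in the 4 lean rats, 3.15-fold apart (adjusted p = 1.98e-05). With all arrays Cidea did not pass (adjusted p = 0.105), and lean control replicate 3 read 9.56. Of 12 droplet coat and lipase genes 1 was higher with all arrays (8.33%, against 1.14% of genes above background). Without that array 4 were higher (33.3%, against 20.3%), and 3 after quantile normalization (25.0%, against 4.68%). None was lower in any of the 3.

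Pdk4, the kinase that shuts pyruvate out of oxidation when fatty acids are the fuel, read 8.34, 8.54, 8.11, 7.19 and 7.96 in obese rats, against 5.58, 6.47, 8.52, 6.36 and 5.90 in lean rats. Apart from lean control replicate 3, every lean array lay below every obese array. It did not pass with all arrays (2.75-fold, adjusted p = 0.0591) and was 3.86-fold higher without that array (1.95 ± 0.26, adjusted p = 4.83e-05).

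**Figure D3:**
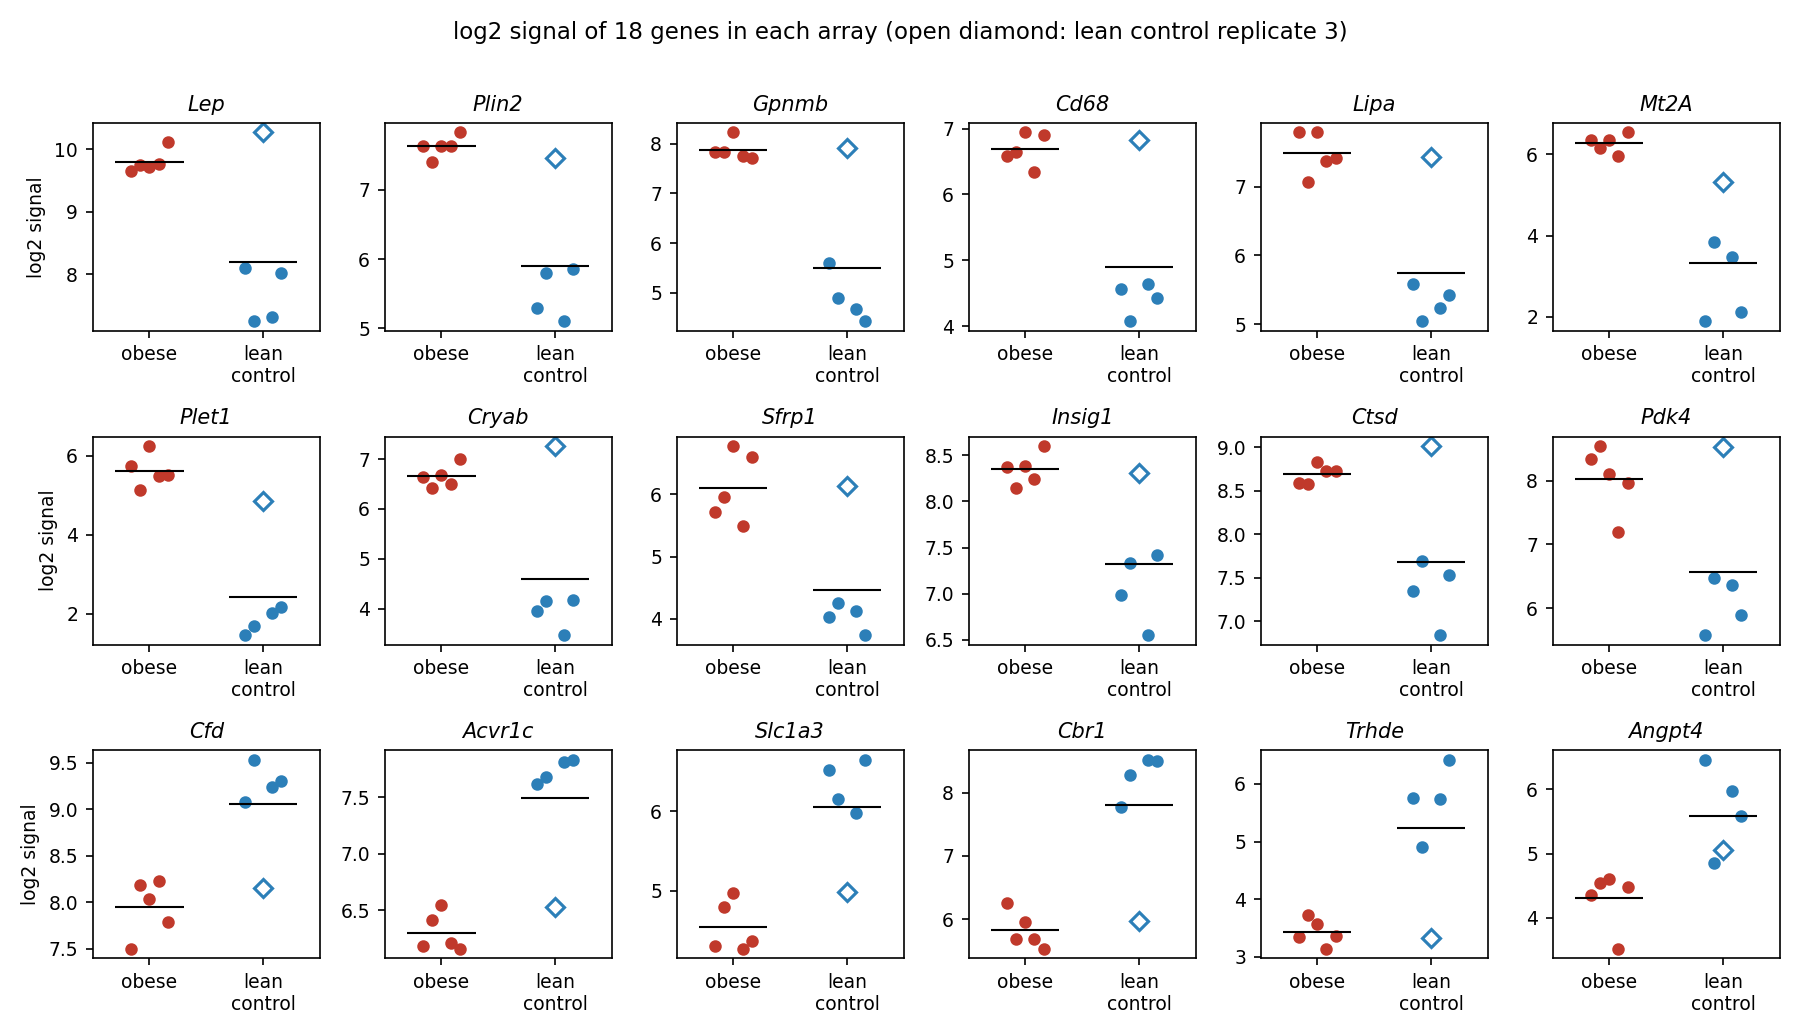
Log2 signal of 18 genes in each of the 5 obese arrays (red, left of each panel) and 5 lean control arrays (blue, right), with group means as black lines and lean control replicate 3 as an open diamond. Vertical scales differ between panels and do not start at 0. In most panels the diamond lies at the level of the obese arrays, and in Mt2A and Angpt4 it lies between the obese arrays and part of the lean ones.

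Several macrophage genes were higher in obese fat, Lyz2, Cd68 and Fcgr2a with all arrays and others only without lean control replicate 3. Lyz2, the lysozyme of macrophages, read 9.96, 9.44, 10.05, 9.86 and 10.10 in obese rats, against 8.02, 7.20, 9.98, 7.41 and 8.09 in lean rats. Cd68, a membrane protein of macrophage lysosomes, read 6.58, 6.65, 6.94, 6.34 and 6.90 in obese rats, against 4.56, 4.07, 6.82, 4.64 and 4.43 in lean rats. In both genes lean control replicate 3 lay within the obese range and the other lean arrays were lower by more than 1 unit. With all arrays Lyz2 was 3.34-fold higher (adjusted p = 0.0368) and Cd68 3.43-fold higher (adjusted p = 0.0456). Without that array they were 4.60-fold and 4.78-fold higher (adjusted p = 4.83e-05 and 0.000134). After quantile normalization with all arrays both had an adjusted p of 0.0557, just above the threshold.

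Fcgr2a, an Fc receptor for IgG, differed from these in its lean values. It read 6.17, 6.44, 6.04, 6.02 and 6.11 in obese rats, against 5.23, 5.86, 5.09, 5.56 and 5.08 in lean rats. The groups did not overlap, and lean control replicate 3 was among the low arrays. The gene was 1.73-fold higher with all arrays (0.79 ± 0.19, adjusted p = 0.0472) and 1.65-fold higher without that array (adjusted p = 0.0171). After quantile normalization it passed in neither (adjusted p = 0.321 and 0.441).

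Of 30 measured macrophage genes, 3 were higher with all arrays (10% of the list, against 1.14% of genes above background) and none lower. With lean control replicate 3 omitted, 14 were higher (46.7%, against 20.3% of genes above background) and none lower, with a median log2 difference of 0.77. After quantile normalization 6 were higher without that array (20.0%, against 4.68%) and none with all arrays. Msr1, a scavenger receptor, averaged 6.07 ± 0.36 in obese rats and 4.51 ± 0.13 in the 4 lean rats (2.95-fold, adjusted p = 0.00449; 0.0776 with all arrays). Ccr2, the monocyte receptor for the chemokine Ccl2, averaged 6.65 ± 0.71 in obese rats and 4.86 ± 0.65 in the 4 lean rats, with overlapping groups (3.45-fold, adjusted p = 0.00501; 0.108 with all arrays). The list's mean level per array was 5.22, 5.31, 5.47, 4.89 and 5.47 in obese rats, against 4.73, 4.43, 5.49, 4.47 and 4.56 in lean rats. In whole tissue, more macrophages and more RNA of these genes per macrophage cannot be told apart.

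Of the genes of lipid-associated macrophages, Gpnmb, Olr1, Lgals3, Plin2 and Lipa were higher with all arrays. Gpnmb, a glycoprotein of lipid-laden macrophages, read 7.84, 7.83, 8.23, 7.76 and 7.72 in obese rats, against 5.59, 4.90, 7.92, 4.68 and 4.42 in lean rats. Apart from lean control replicate 3 the lean arrays lay more than 2 units below every obese array. Gpnmb was 5.18-fold higher with all arrays (2.37 ± 0.50, adjusted p = 0.0305) and 7.88-fold higher without that array (2.98 ± 0.39, adjusted p = 3.96e-05). Olr1, a receptor for oxidized lipoprotein, read 4.88, 4.0, 5.14, 5.26 and 4.75 in obese rats, against 2.14, 2.40, 4.20, 2.24 and 2.24 in lean rats. Its lean mean was near background, and only lean control replicate 3 reached the lowest obese value. It was 4.48-fold higher with all arrays (adjusted p = 0.0164) and 5.87-fold higher without that array (adjusted p = 7.98e-05).

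Lgals3, the lectin galectin-3 of activated macrophages, averaged 7.04 ± 0.25 in obese rats and 5.57 ± 0.87 in lean rats (SD, n = 5 each), 2.78-fold apart (adjusted p = 0.0456), and was 3.42-fold higher without lean control replicate 3 (adjusted p = 0.000903). Trem2, a lipid receptor known from these macrophages, averaged 5.15 ± 0.38 in obese rats and 4.31 ± 0.59 in lean rats and did not pass (adjusted p = 0.130). Without lean control replicate 3 Trem2 was 2.07-fold higher (adjusted p = 0.0162), and after quantile normalization it did not pass (adjusted p = 0.100). Of 21 measured genes of the list, those 5 were higher with all arrays (23.8%, against 1.14% of genes above background) and none lower. After quantile normalization with all arrays 3 were higher, against 0.295% of all genes. Without that array 12 were higher (57.1%, against 20.3% of genes above background), with a median log2 difference of 0.82, and 8 after quantile normalization (38.1%, against 4.68%). The list shares 2 genes with the macrophage list and 6 with the lysosome list, and fat cells also express Plin2.

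Lysosomal genes were the list with the highest share of members higher, among the lists shown in the plot of lists, without lean control replicate 3. Lipa, the acid lipase that frees fatty acids and cholesterol from stored esters, read 7.79, 7.07, 7.79, 7.37 and 7.42 in obese rats, against 5.59, 5.04, 7.44, 5.24 and 5.43 in lean rats. Ctsd, the protease cathepsin D, read 8.59, 8.57, 8.83, 8.72 and 8.73 in obese rats, against 7.35, 7.69, 9.01, 6.84 and 7.53 in lean rats. Both were low in the 4 other lean arrays, and lean control replicate 3 exceeded every obese array in Ctsd. Lipa was 3.34-fold higher with all arrays (adjusted p = 0.0392), and Ctsd missed the threshold (2-fold, adjusted p = 0.0573). Without that array Lipa was 4.48-fold and Ctsd 2.52-fold higher (adjusted p = 0.000139 and 4.71e-05). Lgmn, an asparagine-cutting protease, was 3.08-fold higher and Lamp2, a protein of the lysosomal membrane, 1.87-fold higher without it (adjusted p = 0.000108 and 0.000196).

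Of 27 measured lysosome and phagosome genes, 1 was higher with all arrays (3.70%, against 1.14% of genes above background). With lean control replicate 3 omitted, 20 were higher (74.1%, against 20.3% of genes above background) and none lower, with a median log2 difference of 0.75. After quantile normalization 8 were higher (29.6%, against 4.68%). In all 27 genes lean control replicate 3 lay nearer the obese mean than the mean of the other lean arrays, against 70.8% of all genes. The list's mean level was 6.35, 6.28, 6.60, 6.25 and 6.56 in obese rats, against 5.79, 5.61, 6.74, 5.40 and 5.79 in lean rats. The macrophage list's mean level given above was high and low in the same arrays. Its part in the lysosomal difference was not tested.

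Many lysosomal genes are known to be switched on through a short promoter element, the CLEAR element, bound by the transcription factor TFEB. Its core was searched as TCACGTGA, which reads the same on both strands and contains the E-box CACGTG, in a window of 300 bases around each gene start in RefSeq, build GRCr8, most of it upstream. It was found in 3 of 21 promoters of the lysosome list (14.3%), against 0.867% of 27457 promoters. The 3 promoters are printed to show the bases around the element, with the match in capitals and the start not marked. Ctsd is at chr1:206968772-206969071, Galc at chr6:123245510-123245809 and Atp6v0d1 at chr19:50357199-50357498, all on the minus strand.
Ctsd: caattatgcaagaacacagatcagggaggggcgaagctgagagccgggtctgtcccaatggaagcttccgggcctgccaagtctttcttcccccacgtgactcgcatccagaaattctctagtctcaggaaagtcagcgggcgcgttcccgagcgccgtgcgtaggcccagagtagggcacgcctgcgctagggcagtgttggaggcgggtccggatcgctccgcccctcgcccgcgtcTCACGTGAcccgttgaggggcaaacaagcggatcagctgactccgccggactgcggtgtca
Galc: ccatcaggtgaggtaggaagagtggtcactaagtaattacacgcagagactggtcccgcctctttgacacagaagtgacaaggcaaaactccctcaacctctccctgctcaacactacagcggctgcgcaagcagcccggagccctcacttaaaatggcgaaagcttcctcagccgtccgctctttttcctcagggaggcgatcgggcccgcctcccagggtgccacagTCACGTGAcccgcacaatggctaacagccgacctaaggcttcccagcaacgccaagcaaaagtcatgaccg
Atp6v0d1: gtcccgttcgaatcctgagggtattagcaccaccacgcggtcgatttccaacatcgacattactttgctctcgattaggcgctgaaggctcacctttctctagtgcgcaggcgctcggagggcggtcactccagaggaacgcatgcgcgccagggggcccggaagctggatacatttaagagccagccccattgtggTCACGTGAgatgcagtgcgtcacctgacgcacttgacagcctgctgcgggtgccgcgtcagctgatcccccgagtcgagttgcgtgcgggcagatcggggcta

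Galc, which cuts galactose from sphingolipids, and Atp6v0d1, a subunit of the proton pump, are named for this match and were chosen after their values were seen. Galc averaged 3.74 ± 0.30 in obese rats and 2.95 ± 0.21, near background, in the 4 lean rats (1.73-fold, adjusted p = 0.0120). Atp6v0d1 averaged 6.61 ± 0.32 in obese rats and 5.97 ± 0.26 in the 4 lean rats, with overlapping groups (1.56-fold, adjusted p = 0.0150), and did not pass after quantile normalization (adjusted p = 0.260). Neither passed with all arrays (adjusted p = 0.145 and 0.230).

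Chemokine genes differed in single members, in both directions. Ccl9, a chemokine that draws myeloid cells, read 4.93, 4.53, 5.37, 4.38 and 4.68 in obese rats, against 2.10, 2.45, 4.06, 2.45 and 1.94 in lean rats. The groups did not overlap, and the lean mean was near background. It was 4.52-fold higher with all arrays (adjusted p = 0.0486) and 5.82-fold higher without lean control replicate 3 (adjusted p = 0.00278). Its receptor Ccr1 was 2.86-fold higher without that array (adjusted p = 0.00100; 0.0753 with all arrays). Cxcl13, which draws B cells, read 3.35, 4.14, 4.28, 3.87 and 4.23 in obese rats, against 5.11, 5.45, 4.51, 5.47 and 4.59 in lean rats. Every obese array was below every lean array, and Cxcl13 was 2.27-fold lower without lean control replicate 3 (adjusted p = 0.0151; 0.0836 with all arrays).

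Ccl2, the chemokine that draws monocytes, read 4.21, 4.32, 5.08, 4.92 and 4.88 in obese rats, against 4.09, 3.86, 5.04, 4.71 and 5.69 in lean rats, with full overlap and a log2 difference of 0.01 ± 0.39 (adjusted p = 0.995). Tnf, the inflammatory cytokine tumour necrosis factor, averaged 2.40 ± 0.18 in obese rats and 2.35 ± 0.18 in lean rats, near background in both. Of 40 chemokine and receptor genes, 1 was higher with all arrays (2.50%, against 0.584% of all genes). Without lean control replicate 3, 5 were higher and 2 lower (12.5% and 5.00%, against 10.2% and 2.60% of all genes). After quantile normalization 3 were higher and 2 lower (7.50% and 5.00%, against 2.75% and 2.01% of all genes). Of 29 inflammatory cytokine and acute phase genes none passed with all arrays. Without that array 2 were higher (6.90%, against 10.2% of all genes). These were Tgfb1, which drives matrix synthesis (2.10-fold, adjusted p = 0.00175), and Il1rn, the natural blocker of the interleukin-1 receptor (2.01-fold, adjusted p = 0.0390, both means near background). Both also passed after quantile normalization.

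Markers of other blood cells were mostly near background. Of 22 T and NK cell genes 1 lay above background, of 14 neutrophil genes none, and of 9 B cell genes 1. None of these genes passed with all arrays. Leaving out lean control replicate 3, Cd4 was 3.57-fold higher (8.72 ± 0.40 in obese rats and 6.88 ± 0.15 in the 4 lean rats, adjusted p = 0.000278). Cd4 marks helper T cells and, in rats, also monocytes and macrophages. The other members of these 3 lists that passed without that array were Nkg7, of killer cell granules, Ngp, of neutrophil granules, and Fcrla, of B cells, which were lower with both means near background (adjusted p = 0.0396, 0.0263 and 0.0364), and Blnk, a B cell adaptor also found in macrophages, which was 1.52-fold higher (adjusted p = 0.0353). Of these 5 genes only Cd4 passed after quantile normalization (adjusted p = 0.00548). Lower calls without that array were 4.55% of T and NK cell, 7.14% of neutrophil and 11.1% of B cell genes. They were 2.60% of all genes and 5.39% of the 1280 olfactory, vomeronasal and taste receptor genes. Higher calls were 4.55% of T and NK cell and 11.1% of B cell genes, against 10.2% of all genes. Over the T and NK cell list the median log2 difference was -0.17 without that array. The mean level of the T and NK cell list ran from 2.13 to 2.35 in obese rats and from 2.24 to 2.39 in lean rats.

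Mt2A, a metallothionein that binds zinc and copper, was among the largest differences without overlap. It read 6.35, 6.17, 6.35, 5.97 and 6.54 in obese rats, against 1.89, 3.85, 5.31, 3.47 and 2.13 in lean rats. Every lean array lay below every obese array, with lean control replicate 3 nearest to them. Mt2A was 7.72-fold higher with all arrays (2.95 ± 0.47, adjusted p = 0.00639) and 10.9-fold higher without that array (adjusted p = 1.24e-05). In the latter the lean mean was near background, so this fold is approximate. It also passed after quantile normalization (adjusted p = 0.00834 with all arrays). Of 15 metallothionein and zinc handling genes no other passed with all arrays. With lean control replicate 3 set aside, 4 were higher (26.7%, against 20.3% of genes above background). Among them was the zinc exporter Slc30a1 (1.52-fold, adjusted p = 0.0331), which did not pass after quantile normalization. Of the list, 1 gene, Mt2A, then passed.

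Metallothionein genes are known to respond to zinc through metal response elements bound by the factor MTF1, and glucocorticoids induce them too. The core was searched as TGCNCNC and its reverse complement GNGNGCA in the same RefSeq windows of GRCr8. The Mt2A promoter, at chr19:10838659-10838958 on the minus strand, holds 5 matches that do not overlap each other, shown here in capitals because few promoters hold as many. At least 1 match was present in 50.1% of the 27457 promoters and in 9 of 12 promoters of the zinc list (75%). At least 5 were present in 0.652% of all promoters. Mt3, on the same list, also holds 5 matches and did not pass with or without lean control replicate 3.
Mt2A: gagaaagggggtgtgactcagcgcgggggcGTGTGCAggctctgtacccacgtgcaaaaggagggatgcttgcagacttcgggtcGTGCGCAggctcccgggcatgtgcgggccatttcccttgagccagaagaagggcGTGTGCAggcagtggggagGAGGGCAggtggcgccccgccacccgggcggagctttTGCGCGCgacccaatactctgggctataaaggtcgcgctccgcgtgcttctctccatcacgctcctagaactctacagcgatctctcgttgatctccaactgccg

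Plet1, a surface protein of epithelial and some immune cells in mice, had the highest fold with all arrays among genes past the threshold. It read 5.73, 5.14, 6.24, 5.49 and 5.51 in obese rats, against 1.46, 1.69, 4.84, 2.01 and 2.17 in lean rats. The groups did not overlap, although lean control replicate 3 came within 0.30 of the lowest obese array. Plet1 was 9.11-fold higher with all arrays (3.19 ± 0.61, adjusted p = 0.0166) and 13.8-fold higher without that array (adjusted p = 9.13e-05), with a lean mean near background. Plet1 stood on the mesothelium list, where no other of the 14 measured genes passed with or without that array, and the list's mean level overlapped between groups, 3.78 to 4.51 in obese rats and 3.57 to 4.26 in lean rats.

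Cryab, a small heat shock protein that keeps proteins from clumping, read 6.64, 6.42, 6.69, 6.51 and 7.0 in obese rats, against 3.95, 4.16, 7.26, 3.47 and 4.18 in lean rats. Lean control replicate 3 held the highest value of the 10, and the other lean arrays lay more than 2 units below the obese ones. Cryab was 4.12-fold higher with all arrays (adjusted p = 0.0368) and 6.53-fold higher without that array (2.71 ± 0.25, adjusted p = 4.70e-07). Dmrt2, a transcription factor gene, read 3.44, 3.37, 3.48, 3.35 and 3.68 in obese rats, against 1.97, 1.55, 3.27, 1.45 and 1.54 in lean rats, where the mean was near background. There was no overlap, by a margin of 0.08 over lean control replicate 3. Dmrt2 was 2.84-fold higher with all arrays (adjusted p = 0.00639) and 3.57-fold higher without that array (adjusted p = 3.04e-07).

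Some further genes had large folds. Cd300lb, an activating receptor of myeloid cells, averaged 4.37 ± 0.18 in obese rats and 2.55 ± 0.88 in lean rats without overlap (3.54-fold, adjusted p = 0.0305; 4.5-fold without lean control replicate 3, adjusted p = 0.000332), with the lean mean near background. Dnase1l3, a secreted nuclease known from macrophages and dendritic cells, averaged 5.94 ± 0.33 in obese rats and 3.85 ± 1.04 in lean rats (4.27-fold, adjusted p = 0.0392; 5.81-fold without lean control replicate 3, adjusted p = 0.000432). Prnp, the prion protein, and Mturn, a regulator of progenitor differentiation, were chosen after their values were seen, because without lean control replicate 3 both kept their call under all 19 alternatives run. With all arrays Prnp kept it under 11 of 20 and Mturn under 18 of 20. Prnp averaged 6.50 ± 0.20 in obese rats and 4.93 ± 0.97 in lean rats (2.98-fold, adjusted p = 0.0164; 4.01-fold without that array, adjusted p = 4.70e-07). Mturn averaged 5.73 ± 0.27 in obese rats and 4.36 ± 0.69 in lean rats (2.57-fold, adjusted p = 0.00639; 3.13-fold without that array, adjusted p = 7.55e-07). Cyp2b1, a drug-metabolizing cytochrome P450, averaged 5.31 ± 1.31 in obese rats and 2.01 ± 0.71 in the 4 lean rats (9.84-fold, adjusted p = 0.00202). Its lean mean was near background, and it did not pass with all arrays (adjusted p = 0.108).

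Of the cholesterol genes, Insig1 and Msmo1 were higher with all arrays and others only without lean control replicate 3. Insig1, which holds back the sterol sensor when sterols are plentiful and is itself a target of it, read 8.37, 8.15, 8.38, 8.24 and 8.60 in obese rats, against 6.98, 7.33, 8.31, 6.55 and 7.42 in lean rats. Msmo1, which removes methyl groups from sterol precursors, read 4.65, 5.01, 5.27, 4.95 and 4.94 in obese rats, against 3.92, 3.83, 4.63, 3.71 and 4.36 in lean rats. In Insig1 lean control replicate 3 lay within the obese range, and in Msmo1 the groups did not overlap. With all arrays Insig1 was 2.04-fold and Msmo1 1.83-fold higher (adjusted p = 0.0311 and 0.0368), and both passed after quantile normalization (adjusted p = 0.0308 and 0.0243). Without that array they were 2.42-fold and 2.01-fold higher. Sc5d and Dhcr7, which act in the last steps of synthesis, were 2.17-fold and 2.32-fold higher without that array (adjusted p = 0.000228 and 0.000530; 0.105 and 0.0810 with all arrays).

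Of 21 measured cholesterol synthesis and uptake genes, 2 were higher with all arrays (9.52%, against 1.14% of genes above background) and none lower. With lean control replicate 3 left out, 12 were higher (57.1%, against 20.3% of genes above background) and none lower, with a median log2 difference of 0.75. After quantile normalization 7 were higher (33.3%, against 4.68%). These 12 included Npc1, Npc2 and Soat1, which move or store cholesterol rather than make it. Npc1 and Npc2 were also counted among the higher lysosome and phagosome genes. A sterol response core, TCACNCCAC on either strand, was in 0 of 18 promoters of the list and in 1.13% of all promoters of the same length.

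Stromal genes were higher in part. Sfrp1, a secreted binder of Wnt proteins, read 5.72, 5.95, 6.77, 5.49 and 6.60 in obese rats, against 4.03, 4.25, 6.13, 4.13 and 3.74 in lean rats. Loxl1, an enzyme that cross-links elastin, averaged 5.77 ± 0.32 in obese rats and 4.72 ± 0.75 in lean rats. In both genes lean control replicate 3 lay within the obese range and the other lean arrays below it. With all arrays Sfrp1 was 3.14-fold higher (adjusted p = 0.0265) and Loxl1 2.08-fold higher (adjusted p = 0.0456). Without that array they were 4.19-fold and 2.50-fold higher (adjusted p = 2.64e-05 and 0.000208). Of 27 fibroblast and preadipocyte genes these 2 passed with all arrays (7.41%, against 1.14% of genes above background). Without lean control replicate 3, 12 were higher (44.4%, against 20.3% of genes above background), with a median log2 difference of 0.62. After quantile normalization 3 were higher (11.1%, against 4.68%). None was lower in any of these counts. Pdgfra, the receptor that marks fat cell progenitors, averaged 7.02 ± 0.35 in obese rats and 6.25 ± 0.42 in the 4 lean rats (1.70-fold, adjusted p = 0.0205), and did not pass after quantile normalization (adjusted p = 0.269).

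Some matrix genes that are not collagens rose without lean control replicate 3, and collagens mostly did not pass. Of 26 matricellular and adhesive genes none passed with all arrays. Without that array 11 were higher (42.3%, against 20.3% of genes above background), among them Bgn, the proteoglycan biglycan (2.40-fold, adjusted p = 5.93e-05; 0.0828 with all arrays), and Thbs2, an adhesive glycoprotein (3.11-fold, adjusted p = 0.00105). Bgn averaged 9.78 ± 0.27 in obese rats and 8.52 ± 0.20 in the 4 lean rats, and lean control replicate 3 read 10.28, above all obese arrays. After quantile normalization 4 were higher (15.4%, against 4.68%). The list shares 4 genes with the fibroblast list, Ccn5, Dcn, Lum and Mfap5. Without that array all of these were among the higher genes of both lists. Of 18 collagen genes none passed with all arrays. Without that array 1 was higher, Col14a1 (5.56%, against 20.3% of genes above background), and none passed after quantile normalization. The median log2 difference of the collagens without that array was 0.02 as deposited and -0.20 after quantile normalization. The difference between the matricellular and collagen lists was not tested. The mean level of the collagen list overlapped between groups in the plot of list levels.

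**Figure D4:**
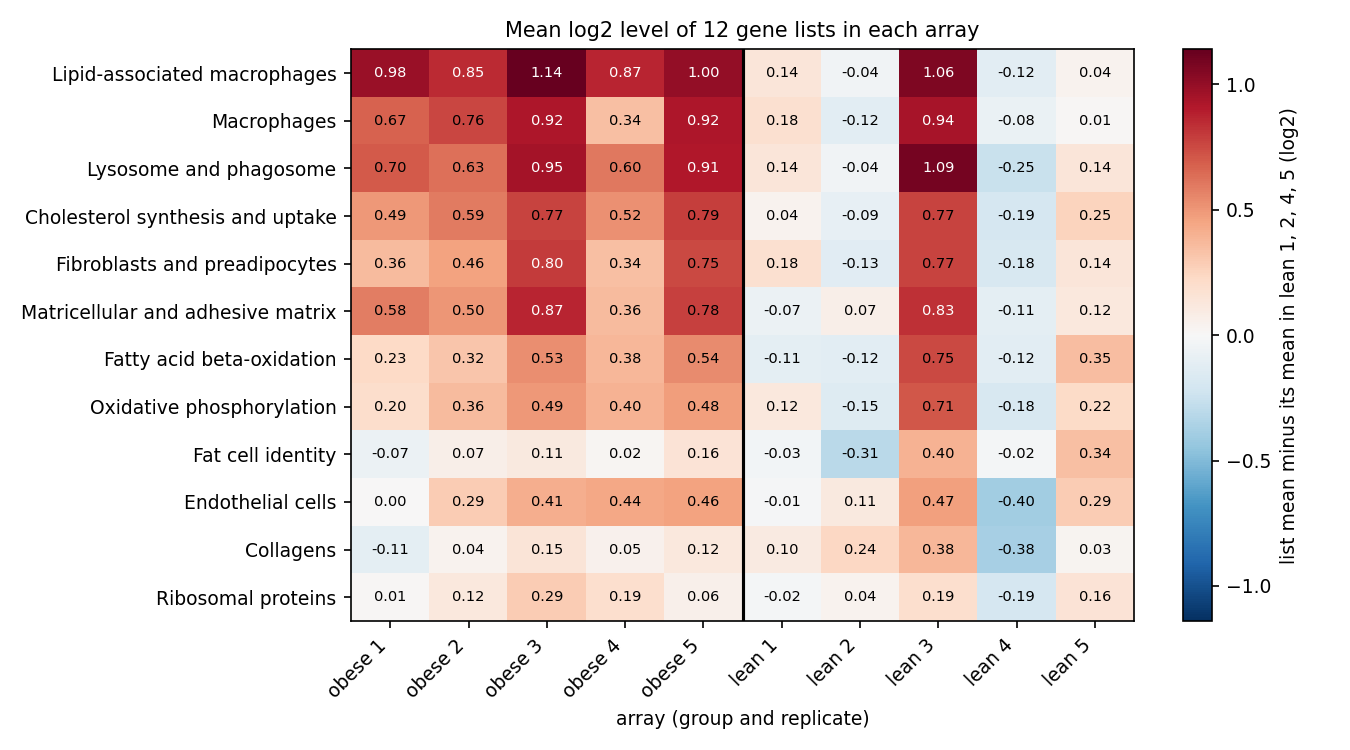
Mean log2 level of 12 gene lists in each of the 5 obese arrays (left of the black line) and 5 lean control arrays (right), as the difference from the mean of lean control replicates 1, 2, 4 and 5. Red is higher and blue lower. Obese arrays and lean control replicate 3 are red for the macrophage, lysosome, cholesterol and stromal lists, and fat cell identity, collagens and ribosomal proteins differ less between groups.

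Fuel-burning genes passed without lean control replicate 3 in shares that shrank after quantile normalization. The share of all genes above background that were higher shrank as well, from 20.3% to 4.68%. Of 24 fatty acid beta-oxidation genes none passed with all arrays. Without that array 11 were higher (45.8%, against 20.3% of genes above background), among them Hadhb, a subunit of the mitochondrial trifunctional enzyme (2.11-fold, adjusted p = 0.000139), and Cpt1a, which carries fatty acids to the mitochondrion (1.79-fold, adjusted p = 0.00276). After quantile normalization 2 were higher (8.33%, against 4.68%) and 1 lower (4.17%, against 3.14%). Of 39 oxidative phosphorylation genes none passed with all arrays. Without that array 9 were higher (23.1%, close to the 20.3% of genes above background), and 3 after quantile normalization (7.69%, against 4.68%). Of 21 tricarboxylic acid cycle and pyruvate genes, 1 was higher with all arrays, Dld, a shared subunit of the pyruvate and oxoglutarate dehydrogenases, which read 8.05, 8.03, 8.0, 7.99 and 8.23 in obese rats, against 7.53, 6.64, 7.96, 7.13 and 7.13 in lean rats. The groups did not overlap, with a gap of 0.04 to lean control replicate 3, and Dld was 1.72-fold higher (adjusted p = 0.0387; 0.0793 after quantile normalization). Once lean control replicate 3 was left out, 6 of the 21 were higher (28.6%, against 20.3% of genes above background). After quantile normalization 3 of them were higher (14.3%, against 4.68%) and 1 lower (4.76%, against 3.14%).

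Fatty acid synthesis genes did not pass with all arrays. Of 15 measured, 4 were higher without lean control replicate 3 (26.7%, against 20.3% of genes above background). Among them were the elongase Elovl6 (2.71-fold, adjusted p = 0.00486) and Me1, which supplies NADPH (2.22-fold, adjusted p = 0.00802). None of the 15 was higher after quantile normalization, and 1 was lower (6.67%, against 3.14% of genes above background). That gene was Srebf1, the transcription factor that drives the pathway. It averaged 4.41 ± 0.54 in obese rats and 5.17 ± 0.67 in the 4 lean rats, with overlapping groups (adjusted p = 0.122 as deposited and 0.0380 after quantile normalization). Fasn had no probe set of its own and was not analysed here.

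The lower genes in obese fat were fewer, and several were receptors and transporters. Cbr1, a carbonyl reductase, read 6.25, 5.69, 5.96, 5.69 and 5.53 in obese rats, against 7.77, 8.28, 5.97, 8.52 and 8.50 in lean rats. Trhde, the enzyme that breaks down thyrotropin-releasing hormone, read 3.35, 3.72, 3.57, 3.14 and 3.36 in obese rats, against 5.76, 4.91, 3.32, 5.74 and 6.42 in lean rats. In both genes lean control replicate 3 lay within the obese range and the other lean arrays more than 1 unit above it. With all arrays Cbr1 was 3.96-fold lower (-1.98 ± 0.36, adjusted p = 0.0164) and Trhde 3.49-fold lower (-1.80 ± 0.36, adjusted p = 0.0258). Without that array they were 5.44-fold and 4.86-fold lower (adjusted p = 6.09e-06 and 9.81e-06).

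Slc1a3, a glutamate and aspartate transporter, read 4.31, 4.80, 4.97, 4.27 and 4.37 in obese rats, against 6.52, 6.15, 4.99, 5.98 and 6.65 in lean rats. Obese and lean arrays did not overlap, with a gap of 0.02 to lean control replicate 3. It was 2.85-fold lower with all arrays (adjusted p = 0.00639) and 3.44-fold lower without that array (adjusted p = 3.97e-06). Slc36a2, a proton-coupled transporter of small amino acids, was 2.84-fold lower with all arrays (adjusted p = 0.0461) and 3.55-fold lower without that array (adjusted p = 0.000880), with the obese mean near background. Of 30 amino acid transporters these 2 were lower with all arrays (6.67%, against 0.137% of all genes) and none higher. Without that array 4 were lower (13.3%, against 2.60% of all genes and 1.13% of genes above background). There were 6 higher (20.0%, close to the 20.3% of genes above background). After quantile normalization 4 were lower and 3 higher. Slc43a1, a transporter of branched-chain amino acids, was 1.81-fold lower without that array (adjusted p = 0.0296) with no overlap among all 10.

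Angpt4, a ligand of the endothelial receptor Tek, read 4.36, 4.55, 4.61, 3.52 and 4.48 in obese rats, against 6.46, 4.85, 5.05, 5.97 and 5.59 in lean rats. There was no overlap, and lean control replicate 3 was not the lowest lean array. Angpt4 was 2.43-fold lower with all arrays (-1.28 ± 0.27, adjusted p = 0.0305) and 2.66-fold lower without lean control replicate 3. Of 19 vessel growth factor genes no other passed with all arrays. Without that array 7 were higher (36.8%, against 20.3% of genes above background) and 1 lower, Angpt4 (5.26%, against 1.13%). After quantile normalization 1 was higher (5.26%, against 4.68%) and 2 were lower, Angpt4 and Apln (10.5%, against 3.14%). Among the 7 was Vegfb (2.04-fold, adjusted p = 0.00455), whose call did not hold after quantile normalization (adjusted p = 0.0866). Of 22 endothelial genes none passed with all arrays, and without that array 3 were higher, Sox18, Cdh5 and Esam (13.6%, below the 20.3% of genes above background), and 1 lower, Prox1. After quantile normalization 1 endothelial gene was higher (4.55%, against 4.68% of genes above background) and none lower. Cdh5, the adhesion protein of endothelial junctions, averaged 8.73 ± 0.15 in obese rats and 8.18 ± 0.37 in the 4 lean rats (1.46-fold, adjusted p = 0.0187; 0.515 after quantile normalization).

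Some G protein receptors of fat cells were among the lower genes. Vipr2, a receptor for vasoactive intestinal peptide, read 1.90, 2.59, 2.54, 2.65 and 2.08 in obese rats, against 3.34, 3.41, 2.65, 3.52 and 3.84 in lean rats. No overlap was seen, the closest pair being obese replicate 4 and lean control replicate 3, both at 2.65 when rounded, and the obese mean was near background. Vipr2 was 2-fold lower with all arrays (adjusted p = 0.0164) and 2.26-fold lower without lean control replicate 3. Hcar1, the lactate receptor that restrains lipolysis, read 4.66, 5.08, 5.49, 5.01 and 5.01 in obese rats, against 6.03, 5.35, 5.79, 6.04 and 6.78 in lean rats. The groups overlapped in 1 lean array, replicate 2, and lean control replicate 3 was not obese-like.

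Hcar1 missed the threshold as deposited with all arrays (1.93-fold, adjusted p = 0.0596), passed after quantile normalization (adjusted p = 0.0178) and was 2-fold lower without lean control replicate 3 (adjusted p = 0.0126). Hcar2, the receptor for ketone bodies and niacin, averaged 4.02 ± 0.34 in obese rats and 5.21 ± 0.71 in the 4 lean rats (2.29-fold lower, adjusted p = 0.00904; 0.0884 with all arrays). Of 30 adrenergic and fat cell G protein receptors, 1 was lower with all arrays (3.33%, against 0.137% of all genes) and none higher. Without that array 3 were lower (10%, against 2.60% of all genes) and 4 higher (13.3%, against 10.2%). After quantile normalization 3 were lower and 1 higher. The smallest p among the 4 higher ones belonged to Npr3, the clearance receptor for natriuretic peptides (2.35-fold, adjusted p = 0.00158).

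Pla2g2a, a secreted phospholipase, read 6.79, 6.43, 6.91, 5.53 and 5.61 in obese rats, against 8.94, 9.81, 6.83, 8.70 and 8.82 in lean rats. Lean control replicate 3 lay within the obese range and the others more than 1 unit above it. It was 7.03-fold lower without that array (-2.81 ± 0.65, adjusted p = 0.00688) and did not pass with all arrays (adjusted p = 0.0818). Xbp1, a transcription factor of the unfolded protein response, averaged 7.56 ± 0.31 in obese rats and 8.24 ± 0.39 in lean rats without overlap, 1.59-fold apart (adjusted p = 0.0610; 0.0187 after quantile normalization). Once lean control replicate 3 was left out, Xbp1 passed both as deposited and after quantile normalization. Irs1, the docking protein of the insulin receptor, averaged 4.26 ± 0.25 in obese rats and 4.95 ± 0.96 in lean rats and did not pass as deposited (adjusted p = 0.195; 0.0659 without lean control replicate 3). Without that array Irs1 was lower after quantile normalization (log2 difference -1.12, adjusted p = 0.0231) and with array spread as a covariate (-1.81, adjusted p = 0.0309). Slc2a4, the insulin-responsive glucose transporter, averaged 3.20 ± 0.20 in obese rats and 3.60 ± 0.43 in lean rats (adjusted p = 0.331).

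**Figure D5:**
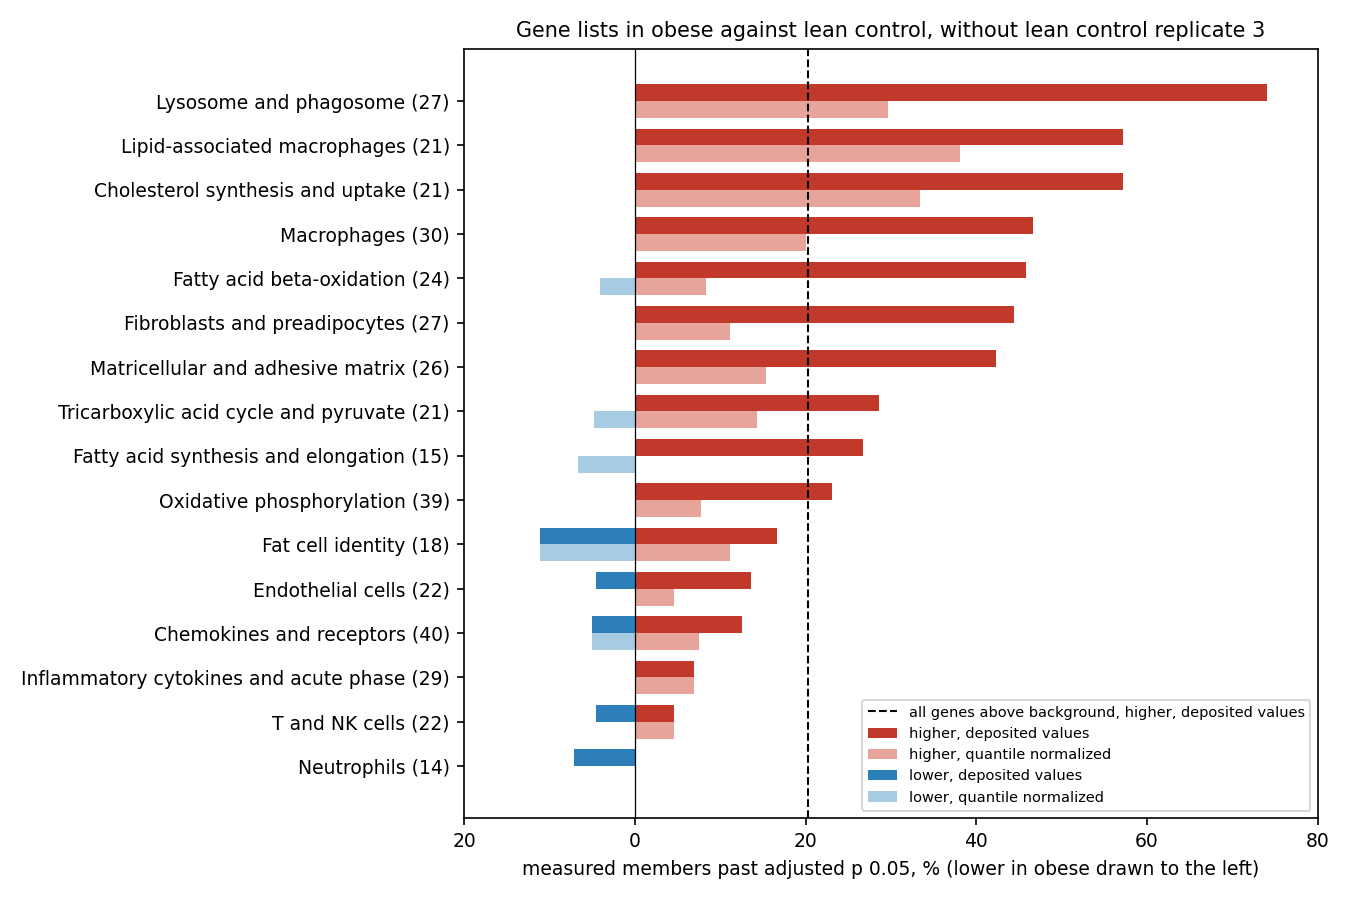
Share of the measured members of 16 gene lists that passed the threshold without lean control replicate 3, in percent, with the number of measured members in brackets. Bars to the right are members higher in obese fat and bars to the left members lower, dark as deposited and pale after quantile normalization, and the dashed line is the 20.3% of all genes above background that were higher as deposited. Lysosome and phagosome genes reached 74.1% as deposited and 29.6% after quantile normalization.

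As a last check, the spread of each array was added to the fit as a covariate. With all arrays no gene then passed in limma, against 1292 at an unadjusted p under 0.05. Leaving out lean control replicate 3, 24 genes passed (0.165%), 11 higher (0.0756%) and 13 lower (0.0893%), and 17 of them were among the 1856. Those 17 were Acvr1c, Angpt4, Cbr1, Cfd, Cryab, Dmrt2, Frzb, Hcar1, Lep, Mal2, Mt2A, Mturn, Pdk4, Prnp, Slc1a3, Trhde and Vipr2, and 13 of the 17 also passed with all arrays. Frzb and Mal2 fall outside the rule for named genes and stand here to complete the count. The spread and the groups run together, so a gene that drops out of this fit is not shown to be equal between obese and lean fat.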

How the data were processed

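The authors deposited log2 signals for 36685 features on 20 arrays, made with RMA per the submitters' processing notes, with no version given. Replicate numbers in the titles are biological, and p-values measure the spread between these arrays, whose number limits the precision (median standard error of a log2 difference 0.17). No label gives a batch. Per the labels' protocols, 100 ng of RNA per sample was labelled.

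Through the array annotation, 14824 probe sets named 1 gene, 829 several and 21032 features none. For 234 genes the brightest probe set was kept, giving 14557 genes. Nothing was renormalized for the main values. Limma 3.58.1 in R 4.3.3 fitted 1 mean per group over 20 arrays, or 19 without lean control replicate 3, with moderated variances, and p-values were adjusted over all genes (Benjamini-Hochberg, 0.05). The scripts were tested on simulated data. Differences are obese minus lean control, with SE, and group means carry SD.

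Of 1456 entries on 55 gene lists, 1091 were measured. Genes, lists and the array set aside were chosen with earlier results of these data known. Named are the 10 highest and 10 lowest differences past the threshold in each fit, up to 4 members per list with the smallest p in each fit, and a set of fixed genes. Alternatives were quantile normalization, median subtraction, array spread as covariate, obese and lean arrays only, array weights, trended robust variances, genes above background, mean of probe sets, replicate block, testing against 1.5-fold, and leaving out each array. Same-numbered obese and lean arrays correlated in their deviations at 0.056 to 0.403, not all above 0.1, so numbers were not taken as pairs. Promoters and gene names came from RefSeq (GRCr8). Plots used matplotlib 3.10.9 in Python 3.11.15.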

Additional observations from a re-analysis of the deposited data

Results flagged for a closer look

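Among 212 groups of 5 arrays, taken from the genes named in the text, 35 single arrays stood apart from the other 4 of their group by Dixon's criterion at 95%, where chance gives about 1 in 20 groups. Lean control replicate 3 accounted for 25 of these, no other lean array for any, and obese arrays for 10. Many of these genes were named because they differed with that array left out, and the array was set aside for its levels, so its flags cannot be set against that rate. It was above the other lean arrays for Lep (10.27), C1qtnf1 (8.43), Adm (4.60), Ndrg1 (7.08) and Gpx3 (9.09), all but Adm genes with bright signal in fat. It was likewise above them for the macrophage and lysosome genes Cd68 (6.82), Msr1 (5.86), Lipa (7.44), Olr1 (4.20), Ccl9 (4.06) and Cd4 (8.93). Among matrix and stromal genes it was above them for Sfrp1 (6.13), Lum (7.48), Dcn (9.83), Bgn (10.28), Cilp (4.85) and Ltbp2 (3.80). The same held for Cryab (7.26), Plet1 (4.84), Dmrt2 (3.27) and Prnp (6.63). It was below the other lean arrays for Acvr1c (6.53), Slc16a3 (3.45), Zim1 (3.0) and Fcrla (2.10). For each of these 25 genes the array lay on the obese side of its group.

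The 10 flags among obese arrays fell on replicate 5 for Lep (10.12), Dld (8.23) and C1qtnf1 (7.85), each above the rest, and on replicate 3 for Gpnmb (8.23), also above. Replicate 4 was above the rest for Adipoq (11.07) and Sytl5 (1.46) and below for Angpt4 (3.52) and Blnk (3.57). Obese replicate 3 was below the rest for Fcrla (2.10). Replicate 2 was below the rest for Slc22a3 (1.31). Sytl5, Slc22a3 and Fcrla were near background in obese rats.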

How the results depend on the processing

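With all 10 arrays the count of 105 genes was 72 with quantile normalization, 153 with median subtraction, 107 with the mean of probe sets, 166 with only genes above background, 51 with trended robust variances, 31 with obese and lean arrays only, 1102 with array weights (0.33 for lean control replicate 3), 0 with array spread as covariate and 0 against 1.5-fold in limma, where 2651 had an unadjusted p under 0.05 in the plain test. Leaving out 1 array gave 4 to 1856: 42, 24, 4, 40 and 9 without obese replicates 1 to 5, and 18, 5, 1856, 6 and 8 without lean control replicates 1 to 5. Without lean control replicate 3 the count of 1856 was 693 with quantile normalization, 1994 with median subtraction, 1355 with obese and lean arrays only, 24 with array spread as covariate and 28 against 1.5-fold. Leaving out a second array gave 973 to 2528. A block by replicate number gave 166 with all arrays and 1454 without that array, and only number 3 correlated best with its own number. Of the 38 genes named in the text that passed with all arrays, none kept the call everywhere, and array spread and the test against 1.5-fold each ended all 38. Of the 98 that passed without that array, 11 kept the call under every alternative with a value. These were Lep, Cfd, Pdk4, Mt2A, Cryab, Dmrt2, Prnp, Mturn, Cbr1, Trhde and Slc1a3, of which Prnp and Mturn were named for keeping it. Array spread ended the call of 83 of the 98, the test against 1.5-fold of 73 and quantile normalization of 16. Signs turned only for genes that did not pass: Adipoq (-0.02 with quantile normalization or array spread and all arrays, -0.07 with quantile normalization and without lean control replicate 3), Ccl2 (-0.19 with quantile normalization in both fits, -0.44 and -0.82 with array spread, -0.07 with the replicate block), Atp6v0d1 (-0.03 with array spread) and Fcrla (0.02 with array spread and all arrays). Leaving out 1 array, log2 differences ranged with all arrays from -0.05 to 0.04 for Adipoq, -0.20 to 0.26 for Ccl2 and -0.02 to 0.10 for Tnf, and without lean control replicate 3 from -0.05 to 0.07 for Adipoq, -0.14 to 0.46 for Ccl2 and -0.23 to 0.18 for Retn. The causes were not tested.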

Other observations

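Other gene groups held single genes that passed with all 10 arrays. Dusp6, a phosphatase that damps ERK signalling, read 5.12, 5.44, 5.20, 4.97 and 5.62 in obese rats, against 3.91, 4.25, 4.84, 4.16 and 4.31 in lean rats, without overlap (1.97-fold higher, adjusted p = 0.0258). It was the only one of 24 immediate early and feedback genes past the threshold, with or without lean control replicate 3. Gpx3, a secreted glutathione peroxidase, was 1.65-fold higher (9.10 ± 0.24 in obese rats and 8.38 ± 0.41 in lean rats, adjusted p = 0.0486). Atp6ap2, the prorenin receptor and a part of the proton pump, was 1.98-fold higher (adjusted p = 0.0425). Slc16a3, an exporter of lactate, was 1.73-fold lower with the obese mean near background (adjusted p = 0.0346). Gprin3 was 2.68-fold lower with the obese mean near background (adjusted p = 0.0417). Slc22a3, an organic cation transporter (2.21-fold), and the olfactory receptor Or4c120 (2.22-fold) were lower with both means near background. Without lean control replicate 3 all of these passed as well, among them Gpx3 at 1.87-fold (adjusted p = 0.000542), Atp6ap2 at 2.39-fold (adjusted p = 7.37e-05) and Dusp6 at 2.16-fold (adjusted p = 0.000804).

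Further groups held calls only without that array. Ndrg1 (2.96-fold higher, adjusted p = 0.000104) and Adm (1.68-fold higher, adjusted p = 0.0178), both known to respond to low oxygen, passed among 13 hypoxia genes, of which 3 were higher and 2 after quantile normalization. Of 9 adipokines related to C1q and TNF 2 were higher (22.2%, against 20.3% of genes above background), C1qtnf1 the more so (2.74-fold, adjusted p = 2.64e-05). Lox, which cross-links collagen, was 3.01-fold higher (adjusted p = 0.000171), and Ltbp2, a binder of elastic fibres, 2.72-fold higher (adjusted p = 0.000128). The lean means of Ltbp2 and Adm were near background. Rrm2, a subunit of the enzyme that makes DNA precursors, was 2.46-fold higher without overlap among all 10 arrays (adjusted p = 0.0180), with 4 of 24 proliferation genes higher and 2 after quantile normalization. These shares, 23.1% of the hypoxia and 16.7% of the proliferation genes, stand beside 20.3% of genes above background. Zim1 was 2.79-fold lower (adjusted p = 0.00471). Hrh3 (3.05-fold) and Sytl5 (2.85-fold) were lower with both means near background. Alb, a liver gene, varied within both groups, 3.46 to 7.42 in obese rats and 4.32 to 6.65 in lean rats, and did not pass (adjusted p = 0.390 with all arrays).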
